A study of Mus musculus with 6 samples.

Results

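Genes of the inflammasome and of pyroptosis were described in BV2, a mouse microglial line that grows as immortalised cells (C57BL/6 background), after exposure to human apolipoprotein E4 in its full length (FL-ApoE4). The members were 10 genes chosen by name, Nlrp3, Nlrp1b, Nlrc4, Pycard, Casp4, Casp8, Gsdmd, Il18, Nek7 and Txnip, of 40202 genes in the authors' table of normalised reads. A group of 3 libraries came from untreated cells (Control) and a group of 3 from cells incubated with the protein at 25 µg/ml for 5 h (FL-ApoE4). No label says whether the untreated cells received the vehicle of the protein, or whether replicates are separate cultures. The p-values therefore cover the spread among these libraries alone, and that spread may be technical.

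Inflammasomes are cytosolic complexes built on a sensor. NLRP3, NLRP1B and NLRC4 are such sensors, PYCARD (ASC) is the adaptor that links a sensor to caspase-1, and CASP4 (mouse caspase-11) responds to intracellular lipopolysaccharide. Activated caspases mature IL-18 and cut GSDMD, whose fragments form pores in the plasma membrane. In macrophages and microglia the transcripts of Nlrp3 and Il1b are known to be raised by Toll-like receptor and NF-kB signalling before the complex can assemble.

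The sequences below lie just before the transcription start of Nlrp3, of the other genes whose profile over the libraries was most like that of Nlrp3 and that have an entry (Nod2 and Cish), and of Nlrc4, the member whose libraries differed between groups in the other direction. They are RefSeq sequences of build GRCm38.p6 and were read 5′ to 3′ on the strand of the gene, 250 bases each, from the most upstream start. The positions are chr11:59541319-59541568 on the plus strand for Nlrp3, chr8:88647097-88647346 on the plus strand for Nod2, chr9:107296409-107296658 on the plus strand for Cish and chr17:74459109-74459358 on the minus strand for Nlrc4. The submitters' processing notes name GRCm39, so these positions are not on the build of the files. Capitals mark matches on either strand to a kB motif written as GGG, any 5 bases and CC.
Nlrp3: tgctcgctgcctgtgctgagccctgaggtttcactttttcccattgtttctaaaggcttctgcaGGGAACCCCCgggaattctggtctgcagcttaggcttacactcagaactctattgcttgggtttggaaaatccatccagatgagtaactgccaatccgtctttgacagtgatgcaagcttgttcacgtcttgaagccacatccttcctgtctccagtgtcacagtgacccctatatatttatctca
Nod2: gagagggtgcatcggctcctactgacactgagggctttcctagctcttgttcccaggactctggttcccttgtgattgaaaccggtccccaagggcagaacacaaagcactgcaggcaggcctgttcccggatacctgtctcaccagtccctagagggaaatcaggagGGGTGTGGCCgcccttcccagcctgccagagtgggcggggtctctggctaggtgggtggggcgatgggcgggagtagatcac
Cish: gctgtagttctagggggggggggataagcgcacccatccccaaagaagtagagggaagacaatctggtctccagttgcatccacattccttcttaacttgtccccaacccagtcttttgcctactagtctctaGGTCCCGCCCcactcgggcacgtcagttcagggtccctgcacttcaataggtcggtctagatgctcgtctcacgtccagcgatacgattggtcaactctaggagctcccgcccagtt
Nlrc4: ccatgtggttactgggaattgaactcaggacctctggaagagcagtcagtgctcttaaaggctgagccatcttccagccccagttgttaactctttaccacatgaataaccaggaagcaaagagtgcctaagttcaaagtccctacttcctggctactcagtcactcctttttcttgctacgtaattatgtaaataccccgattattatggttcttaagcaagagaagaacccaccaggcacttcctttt
A match is present in the Nlrp3, Nod2 and Cish windows and in 45.8% of the 32851 RefSeq windows of this length, while the Nlrc4 window holds none. Neither the AP-1 motif TGANTCA (6.75% of windows) nor the STAT motif TTCNNNGAA (7.02%) has these letters in any of the 4 windows. These matches describe the letters alone.

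Libraries held 45700128 to 54965393 whole reads. Control replicate 1 stood apart from the other controls. The mean chi-square per gene of recovered reads was 57.9 and 65.3 for its pairs with the others and 4.52 for the remaining pair. For FL-ApoE4 replicate 1 these values were 19.9 and 18.5, and 4.14 for the remaining treated pair. All 10 microglia and macrophage markers were present, their summed level being 196221 to 201055 normalised reads in controls and 218058 to 225015 with FL-ApoE4. Neuron, astrocyte, fibroblast and endothelium, neutrophil and lymphocyte markers summed to at most 130.3 normalised reads in any library. Oligodendrocyte markers summed to 1151 to 1295, of which Mbp held 1059 to 1191, with Olig1 listed at 0. A gene given only with its difference over all libraries was called by limma neither with nor without Control replicate 1.

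Of the 10 members, 7 passed the filter of a mean of at least 10 normalised reads and were tested, Pycard was below it, and Casp4 and Txnip are listed at 0. None of the 7 passed the threshold of 0.05 for limma's adjusted p over all 6 libraries. Of all 14079 genes tested 0 passed it (0% called). At an unadjusted p under 0.05 stood 2 of the 7, Nlrp3 and Nlrc4, where 13.1% of all genes did. The edgeR quasi-likelihood test and DESeq2 also called 0 of the 7, with 2 at an unadjusted p under 0.05 in each. Over all genes edgeR called 0 (1844, or 13.1%, at an unadjusted p under 0.05). DESeq2 called 370 of the 12711 genes to which it gave an adjusted p (2.91%, with 1.50% higher and 1.41% lower). Of the genes with an adjusted p in the authors' deposited table, 2.85% are under 0.05, and no member is. The groups did not overlap for 2 of the 7, Nlrp3 lower and Nlrc4 higher, against 21.9% of all genes (11.1% higher and 10.9% lower). With Control replicate 1 left out limma called 1 of the 7, Nlrp3, which fell, where 1.69% of all genes were called lower and 2.93% higher. The controls left in that fit are a closely alike pair, so its p-values may be too small.

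**Figure D1:**
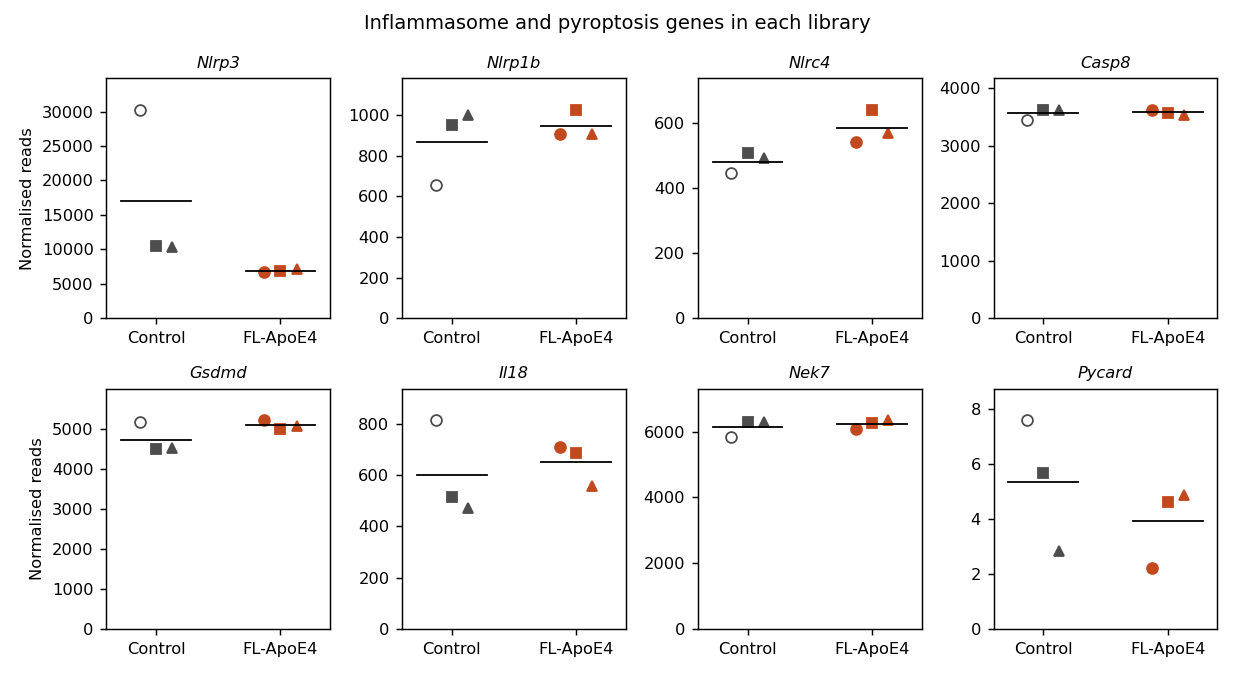
Normalised reads of the 7 tested members and of Pycard in each library, Control in grey and FL-ApoE4 in orange; circles, squares and triangles are replicates 1, 2 and 3, the open circle is Control replicate 1 and bars are group means, with each vertical axis starting at 0. Nlrp3 was at 30278 in Control replicate 1, at 10365 and 10463 in the other controls and at 6645 to 7089 with FL-ApoE4.

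Nlrp3 was lower with FL-ApoE4 in every library. Its normalised reads were 30278, 10463 and 10365 in Control replicates 1 to 3, and FL-ApoE4 replicates 1 to 3 had 6645, 6833 and 7089. Every treated library lay below every control, and Control replicate 1 was 2.91-fold above the mean of the other controls. The group means were 17035 ± 11469 and 6856 ± 223 (SD, n = 3 each), so that the treated mean was 59.8% below the control mean with all libraries and 34.2% below the mean of Control replicates 2 and 3. The log2 fold change was -1.12 ± 0.38 (SE; limma adjusted p = 0.278). Without Control replicate 1 Nlrp3 fell by 0.60 ± 0.05 on the log2 scale (limma adjusted p = 0.000825, edgeR adjusted p = 0.000714), a smaller difference with a narrower 95% interval, -0.71 to -0.49. With all libraries the interval reached from 0.250-fold to 0.851-fold. With any other single library left out the log2 fold change itself was -1.38 to -1.09, with limma adjusted p of 0.279 or more. The direction was the same in each of these fits, and the size depended on Control replicate 1. In bulk RNA, fewer cells with the transcript and less of it per cell cannot be told apart. In the authors' deposited table its log2 fold change is -1.31 with a standard error of 0.56 and an adjusted p of 0.239.

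The other sensors among the members were expressed at far lower levels and did not share this pattern. Nlrc4, the sensor that responds through NAIP proteins to bacterial flagellin and secretion systems, was at 444, 506 and 490 normalised reads in Control replicates 1 to 3 and at 541, 640 and 568 with FL-ApoE4. All treated libraries lay above all controls, by a narrow margin between 506 and 541. The log2 fold change of 0.28 ± 0.09 did not pass the threshold (limma adjusted p = 0.281), and neither did that of 0.22 ± 0.09 without Control replicate 1 (adjusted p = 0.226). The authors' deposited table gives it 0.28 with an adjusted p of 0.223.

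Nlrp1b, a sensor that anthrax lethal factor activates in some mouse strains, was at 655, 952 and 998 normalised reads in controls and at 904, 1025 and 904 with FL-ApoE4. The groups overlapped, the lowest value being that of Control replicate 1. Its log2 fold change was 0.14 ± 0.16 with all libraries and -0.05 ± 0.08 without Control replicate 1 (limma adjusted p = 0.774 and 0.787), so its sign rested on that library. Nlrp1a, a near copy of Nlrp1b, was at 1133 ± 62.8 and 1262 ± 82.8 (SD, n = 3 each; log2 fold change 0.15 ± 0.08, adjusted p = 0.445). How reads shared by the copies were counted is not given in the sources used here, so their separate levels are uncertain.

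NEK7, the kinase that binds NLRP3 and licenses its assembly, had overlapping groups. Nek7 was at 5842, 6308 and 6296 normalised reads in controls and at 6075, 6279 and 6346 with FL-ApoE4, Control replicate 1 being lowest. The log2 fold change was 0.02 ± 0.05, with a 95% interval of -0.10 to 0.14, which corresponds to 0.933-fold to 1.10-fold. Without Control replicate 1 it was -0.02 ± 0.05. Txnip, whose product binds thioredoxin and has been described as an NLRP3 partner, is listed at 0 in all 6 libraries. B2m, which cells commonly express, is also listed at 0, so nothing is read from this about Txnip expression.

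Pycard, the adaptor gene, was at 7.60, 5.69 and 2.83 normalised reads in controls and at 2.23, 4.64 and 4.89 with FL-ApoE4. The groups overlapped, and these few reads do not allow a difference to be detected. Casp4 is listed at 0 in all libraries, and so is Casp1, which encodes the caspase that NLRP3 activates. Casp12, a neighbour of both, had at most 1.88 normalised reads in a library. The listing of caspase-1 and caspase-11 genes at 0 is given as it stands in the table, with the same limit as for Txnip.

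Casp8, which encodes a caspase of death receptor signalling that can also cleave GSDMD and pro-IL-1β, did not stand apart between groups. It was at 3439, 3621 and 3625 normalised reads in controls and at 3621, 3568 and 3541 with FL-ApoE4. The treated values lay within the range of the controls. Its log2 fold change was 0.01 ± 0.05, with a 95% interval of -0.11 to 0.12, and -0.02 ± 0.05 without Control replicate 1.

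Gsdmd, the pore-forming executioner, was at 5166, 4491 and 4529 normalised reads in controls and at 5217, 5010 and 5086 with FL-ApoE4. Control replicate 1 fell within the treated range, and the other controls lay below it. The log2 fold change was 0.11 ± 0.07 (limma adjusted p = 0.517). Leaving out Control replicate 1, it was 0.18 ± 0.05, which did not pass by limma (adjusted p = 0.0784) or edgeR (0.0804) but passed by DESeq2 (adjusted p = 0.0349).

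Il18, which encodes the cytokine matured by caspase-1, had a similar arrangement with a wider spread. It was at 812, 514 and 469 normalised reads in controls and at 708, 686 and 556 with FL-ApoE4. Control replicate 1 was the highest of all libraries, and every treated library lay above Control replicates 2 and 3. The log2 fold change was 0.15 ± 0.21 (limma adjusted p = 0.822). With that library left out it was 0.40 ± 0.11 (limma adjusted p = 0.0935, edgeR 0.0840), and DESeq2 called it higher (adjusted p = 0.0322). Il1b, the gene of the partner cytokine, is listed at 0 in all libraries, with the same limit as for Txnip.

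**Figure D2:**
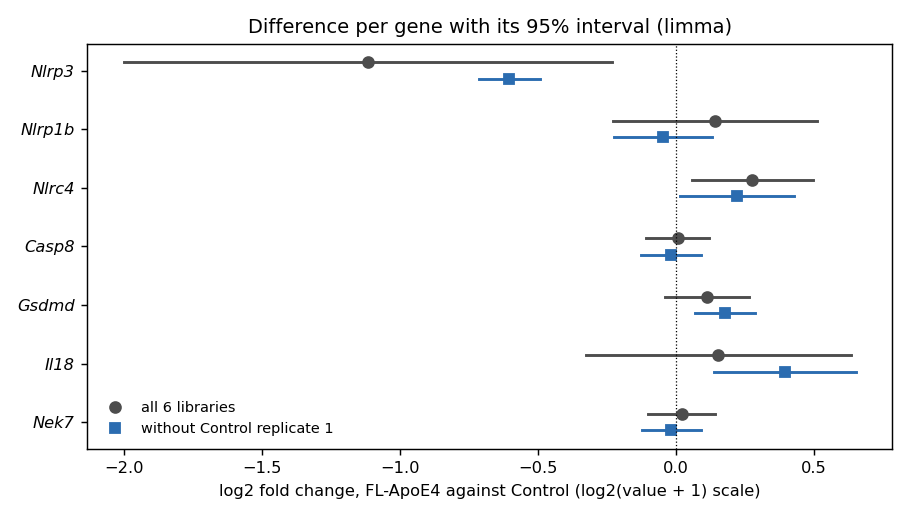
Log2 fold change of the 7 tested members, FL-ApoE4 against Control, with 95% intervals from limma; grey circles use all 6 libraries and blue squares leave out Control replicate 1. The Nlrp3 interval ran from -0.71 to -0.49 without that control and was wider, ending at -0.23, with all libraries, while those of Casp8 and Nek7 included 0 in both.

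Levels of different genes were compared per kb of annotated exon. In controls Nlrp3 had the highest level of the 10, with 2555 to 7463 normalised reads per kb, followed by Gsdmd (1889 to 2173) and Casp8 (1189 to 1253). Nek7 (792 to 855) stood next and Il18 (455 to 788) after it, their ranges nearly touching. Nlrp1b (104 to 158) and Nlrc4 (92.4 to 105) followed, with ranges that overlapped, and Pycard was listed far below at 0.744 to 2.00. As B2m is listed at 0, a low listing need not be low expression, and nothing is read from it about the level of Pycard. The lengths are unions of annotated exons, so the order between genes is approximate. With FL-ApoE4 the order of the first pair was exchanged, Gsdmd standing at 2108 to 2195 and Nlrp3 at 1638 to 1747 per kb. The ratio of Nlrp3 to Gsdmd within a library, which no scaling between libraries can alter, was 3.43, 1.36 and 1.34 in the controls and 0.746, 0.799 and 0.817 with FL-ApoE4, replicates 1 to 3 in order. The ratio of Nlrp3 to Nek7 was 9.42, 3.02 and 2.99 in controls and 1.99, 1.98 and 2.03 with FL-ApoE4. Both ratios were lower in every treated library than in every control. They were chosen after the values were seen and carry no test.

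**Figure D3:**
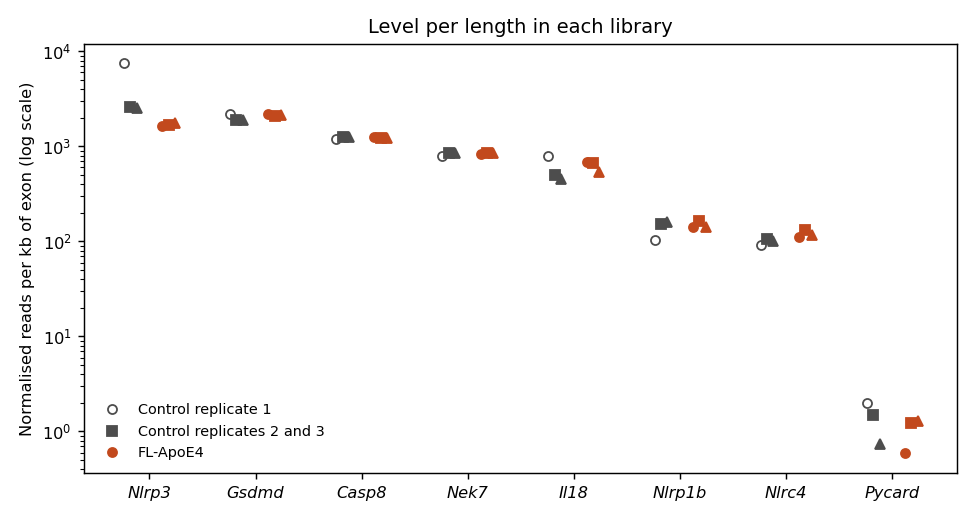
Level per length of the 8 members with reads, as normalised reads per kb of exon on a log axis, for each library; open circles are Control replicate 1, grey symbols the other controls and orange symbols FL-ApoE4. Nlrp3 stood above Gsdmd in every control and below it in every treated library.

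The profile of Nlrp3 over the 6 libraries had close counterparts outside the members. By the root mean square distance between centred log2 profiles, the nearest of all tested genes was Nod2, the cytosolic receptor for muramyl dipeptide, at 0.07. It was at 3910, 1494 and 1443 normalised reads in controls and at 842, 994 and 994 with FL-ApoE4. Cish, a cytokine-induced inhibitor of STAT signalling, followed at 0.08, with 420, 156 and 148 in controls and 95.9, 85.3 and 103 with FL-ApoE4. Phlda1 stood at 0.10. All have the same arrangement, with Control replicate 1 highest and treated libraries lowest. Among members, the distance of Nlrp3 to any other was 0.71 to 0.95, and the closest pair was Casp8 and Nek7 at 0.03. Nearest to Nlrc4 were Slc45a4, Gne and Gorasp1, at 0.03 to 0.04. These distances describe the profiles, over libraries that share Control replicate 1.

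The wider pathway was read in 10 lists of sensors, adaptors, executioners, cytokines, partners and regulators. Of 159 genes other than the members, 154 are in the table and 132 were tested. Over all libraries limma called 0 of them, with 24 at an unadjusted p under 0.05, and edgeR called 0, with 23. Of all genes tested, 13.1% had an unadjusted p under 0.05 by each of these tests. DESeq2 called 4 of the 132, Ptk2b and Ptpn22 higher and Ddit4 and Serpinb1a lower. It called 2.91% of all genes to which it gave an adjusted p. With Control replicate 1 left out, limma called 12 higher and 4 lower, 12.1% of the 132, against 4.62% of all genes tested. In that setting edgeR called 16, where it called 691 of the 14079 genes. DESeq2 called 19 there, and 959 over all genes, but it gave some genes, Chmp4c and Zbp1 among them, no adjusted p. The counts of calls per list are those of limma unless another tool is named. The lists were drawn up with earlier results of these data known.

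Of 14 tested sensors 0 were called over all libraries by limma, and the median log2 fold change was 0.03 against 0.00 over all genes. In the fit leaving out Control replicate 1, 2 fell, Nlrp3 and Nod2 (-0.64, limma adjusted p = 0.00507). Aim2, the sensor of cytosolic DNA, had 3886 ± 253 normalised reads (SD, n = 3) untreated and 3771 ± 94.2 (n = 3) after FL-ApoE4. Its log2 fold change was -0.04 ± 0.06, and -0.10 without Control replicate 1. Nlrp10 lay higher in every treated library, at 411 ± 120 and 602 ± 61.8, and did not pass. Its log2 fold change was 0.59 (limma adjusted p = 0.314), and 0.32 without Control replicate 1 (adjusted p = 0.109). Naip5, which detects flagellin for NLRC4, had 0.18 ± 0.09 (adjusted p = 0.473), but reads shared among Naip copies make it uncertain.

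In the list of adaptors and inflammatory caspases 4 genes could be tested and 3 are listed at 0, Casp1, Casp4 and Card9. The limit given for Txnip holds for each of them. Cflar, which encodes the caspase-8 inhibitor cFLIP, was at 12735, 5382 and 5067 normalised reads in controls and at 3584, 3968 and 4455 with FL-ApoE4. Its groups did not overlap, and it fell by 0.39 on the log2 scale without Control replicate 1 (limma adjusted p = 0.0396), against -0.82 ± 0.32 (adjusted p = 0.343) with all libraries. Fadd, the adaptor that recruits caspase-8, had -0.18 ± 0.08 (limma adjusted p = 0.398), and -0.11 without Control replicate 1. Card19 had 0.10 ± 0.07 (adjusted p = 0.608).

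Among executioners, 4 of 12 were tested and 0 were called over all libraries. Ninj1, whose product ruptures the plasma membrane after pore formation, was at 11852, 8145 and 7698 normalised reads in controls and at 10592, 9893 and 9615 with FL-ApoE4. It resembled Gsdmd and Il18 in that Control replicate 1 was high and the treated libraries lay above the other controls. Ninj1 had 0.15 ± 0.15 with all libraries (limma adjusted p = 0.753) and rose by 0.34 without Control replicate 1 (adjusted p = 0.0128). Gsdme, another gasdermin, was at 1071 ± 124 and 1044 ± 131 (SD, n = 3 each), with a log2 fold change of -0.04 that was 0.06 without Control replicate 1. Ninj2 had -0.39 ± 0.13 (adjusted p = 0.274).

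Of the IL-1 family list 10 genes were tested, with medians of -0.18 with and -0.11 without Control replicate 1. Limma and edgeR called 0 in either case, while DESeq2 called Il18 alone, without that library. Il1a, which encodes IL-1α, was at 188, 61.7 and 53.7 normalised reads in controls and at 39.0, 45.4 and 65.6 with FL-ApoE4. The groups overlapped, Control replicate 1 again being highest. Il1rn, the receptor antagonist, had -0.42 ± 0.29 (limma adjusted p = 0.592) and -0.05 without Control replicate 1. Il1r2, the decoy receptor, was at 44.0 ± 8.14 and 23.9 ± 8.75 (log2 fold change -0.90 ± 0.31, adjusted p = 0.282). Il18bp, which neutralises IL-18, was at 214 ± 4.11 and 190 ± 13.0 (adjusted p = 0.513), and Il18rap, a chain of the IL-18 receptor, had -0.19 ± 0.13 (adjusted p = 0.562), and -0.30 without Control replicate 1.

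Among NLRP3 activators and partners 28 were tested, with a median of 0.02. Ptk2b, a tyrosine kinase described as phosphorylating ASC, was at 5762, 5364 and 5479 normalised reads in controls and at 7674, 8165 and 7444 with FL-ApoE4. All treated libraries were above all controls, Control replicate 1 was the highest control by a small margin, and the log2 fold change was 0.49 ± 0.06 (limma adjusted p = 0.0666; DESeq2 adjusted p = 2.16e-08). By limma it rose by 0.52 without Control replicate 1 (adjusted p = 0.0021). P2rx7, the ATP-gated channel that triggers NLRP3 through potassium efflux, was at 3801, 4953 and 5236 in controls and at 5198, 5902 and 5954 with FL-ApoE4, and did not pass (0.30 ± 0.12, adjusted p = 0.358). Its log2 fold change was 0.16 without Control replicate 1. The potassium channel gene Kcnk13 (0.19 ± 0.05, adjusted p = 0.204), the lipid kinase gene Pi4k2a (0.17 ± 0.05, 0.247) and the kinase gene Btk (0.16 ± 0.06, 0.297) had small positive differences without overlap between groups. Cmpk2, a mitochondrial nucleotide kinase gene, and Syk, a kinase gene, were also called higher without Control replicate 1 (log2 fold changes 1.93 and 0.42, adjusted p = 0.00445 and 0.011). They are named because they were called there, and with all libraries they had 1.21 and 0.15 (adjusted p = 0.435 and 0.837). For both the groups overlapped. Cmpk2 was at 236 normalised reads in Control replicate 1, within the treated range of 151 to 287, and at 46.5 and 57.5 in the other controls. Syk was at 16863 in Control replicate 1, above the treated range of 11669 to 13730.5, and at 9495 and 9573 in the other controls.

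In the list named inflammasome restraint 19 genes were tested, with a median of -0.03. Over all libraries limma called 0 of them and DESeq2 called 2. The name of the list need not hold for each gene, Ptpn22 among them. Tnfaip3, which encodes the ubiquitin-editing enzyme A20, was at 14554, 6757 and 6126 normalised reads in controls and at 3715, 3981 and 4518 with FL-ApoE4. Its libraries were arranged as for Nlrp3, with -1.06 ± 0.30 (limma adjusted p = 0.219) over all of them. Leaving out Control replicate 1, Tnfaip3 fell by 0.66 (adjusted p = 0.00396). Ptpn22, a phosphatase gene, had 0.40 ± 0.09 (limma adjusted p = 0.155; DESeq2 adjusted p = 0.0240) and Serpinb1a, a protease inhibitor gene, -0.40 ± 0.09 (limma adjusted p = 0.168; DESeq2 adjusted p = 0.00823). Fbxl2 had -0.39 ± 0.10 (limma adjusted p = 0.201).

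The list of caspase-11 and lipopolysaccharide delivery, which includes interferon-inducible GTPases that expose bacterial lipopolysaccharide to the cytosol, had the highest median of the lists, 0.19 over 16 genes, with 0 called over all libraries by limma. Without Control replicate 1 the median was 0.39, and limma called 7 of the 16 higher, where 2.93% of all genes were called higher. Those 7 are all genes of interferon-inducible GTPases, and no other gene of the list was called by limma in that fit. Gbp2, named with Gbp3, Gbp5 and Gbp6 because it was called there, was at 1343, 180 and 185 normalised reads in controls and at 738, 714 and 455 with FL-ApoE4. The treated libraries lay between Control replicate 1 and the other controls. Gbp2 rose by 1.76 without Control replicate 1 (limma adjusted p = 0.00225), against 0.80 with all libraries (adjusted p = 0.7). Gbp3, Gbp5 and Gbp6 rose by 1.28, 1.09 and 1.59 in the same fit (adjusted p = 0.000962, 0.0475 and 0.0157), Gbp7 by 0.94 (adjusted p = 0.00214), Irgm1 by 0.60 (0.00966) and Irgm2 by 0.73 (0.0475). With all libraries these 6 had 0.62, 0.07, 0.59, 0.60, 0.37 and 0.52 in the same order, and limma called none. Ifi47 had 0.66 there (adjusted p = 0.0516). Reads shared among Gbp copies may be split between them. The median gene of this list was 0.62 (log2) higher in Control replicate 1 than in its fellow controls, and this library's part in these values was not tested beyond leaving it out.

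Txnip itself cannot be described. Of 15 tested thioredoxin and glucose-sensing genes 0 were called over all libraries by limma and 1, Ddit4, by DESeq2, with a median of 0.00. Arrdc4, an arrestin gene related to Txnip, was at 1120 ± 172 and 1003 ± 43.5 normalised reads (SD, n = 3 each; log2 fold change -0.15 ± 0.11). Leaving out Control replicate 1 brought Arrdc4 to -0.03. Ddit4, which encodes an inhibitor of mTORC1, was at 305, 562 and 516 in controls and at 160, 140 and 220 with FL-ApoE4, without overlap. Ddit4 had -1.38 ± 0.26 with all libraries (limma adjusted p = 0.125; DESeq2 adjusted p = 6.1e-06). It fell by 1.66 in the fit with Control replicates 2 and 3 (limma adjusted p = 0.0021). Txnrd3 had -0.22 ± 0.07, Arrdc1 0.16 ± 0.07 and Arrdc3 0.48 ± 0.22, the last being 0.20 without Control replicate 1. Limma called none of these in either fit.

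ESCRT-III genes encode proteins that reseal membranes pierced by GSDMD. Of 15 tested 0 were called with or without Control replicate 1, and medians were -0.01 and 0.04. The lowest p values belonged to Chmp4c (-0.67 ± 0.31, at 18.9 ± 4.34 and 11.6 ± 3.52 normalised reads), Chmp6 (0.12 ± 0.06), Ist1 (-0.09 ± 0.06) and Chmp1a (0.07 ± 0.05).

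In the list of apoptotic caspases and necroptosis 14 were tested, with 0 called over all libraries and a median of 0.00. Zbp1, an interferon-inducible nucleic acid sensor upstream of necroptosis, was at 6.52, 5.69 and 3.77 normalised reads in controls and at 26.8, 18.5 and 37.2 with FL-ApoE4. All treated libraries were above all controls at these low counts, and the log2 difference was 2.14 ± 0.35 (limma adjusted p = 0.112). Zbp1 rose by 2.28 without Control replicate 1 (limma adjusted p = 0.0142). DESeq2 gave Zbp1 no adjusted p, with or without that library. Ripk3, the necroptosis kinase gene, is listed at 0, with the same limit as for Txnip. Apaf1, of the apoptosome, had -0.20 ± 0.07 (adjusted p = 0.282), and Birc2, which encodes an inhibitor of apoptosis, had -0.28 ± 0.10 (adjusted p = 0.294), and -0.17 without Control replicate 1.

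**Figure D4:**
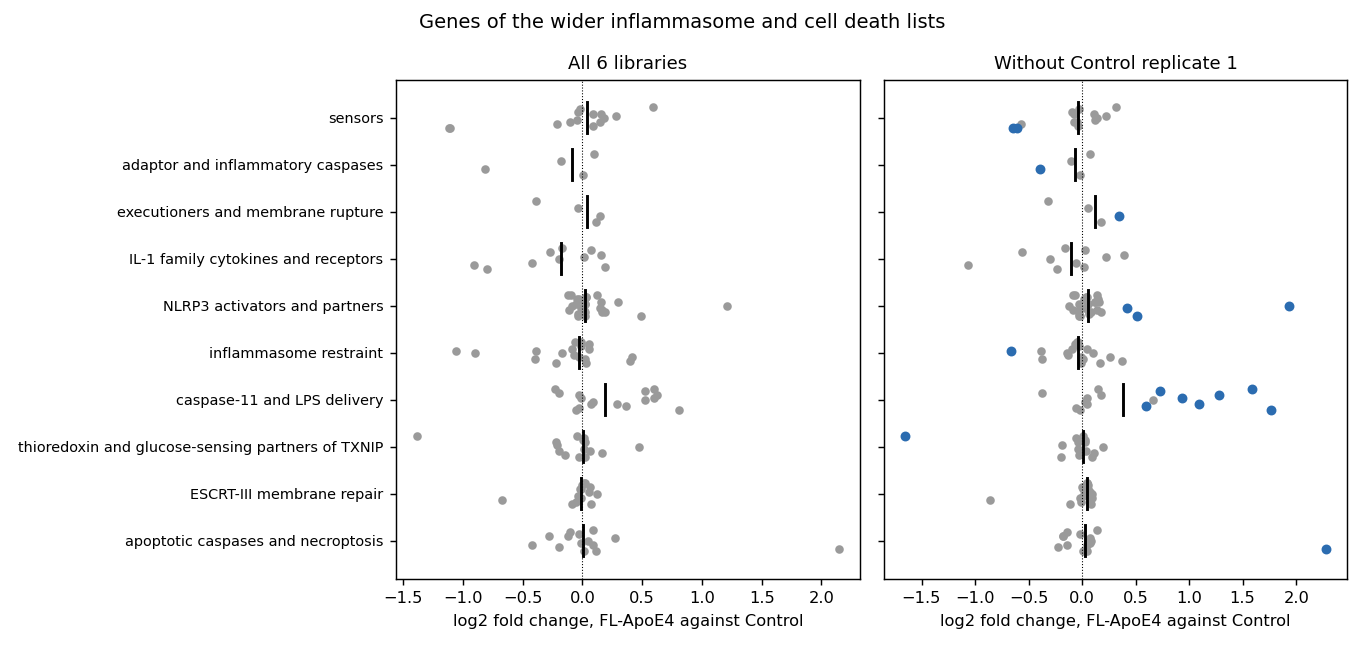
Log2 fold change of each tested gene of the 10 lists, FL-ApoE4 against Control, with all 6 libraries on the left and without Control replicate 1 on the right; each point is a gene, black bars are list medians, and blue marks genes with a limma adjusted p under 0.05. On the right 7 genes of the caspase-11 and lipopolysaccharide delivery list were called higher, and its median moved from 0.19 to 0.39. Those 7 are all genes of interferon-inducible GTPases.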

How the data were processed

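RNA of 6 BV2 libraries was prepared with a directional kit, per the labels' protocols. The submitters' processing notes name HISAT2 2.2.1, HTSeq, FastQC 0.11.8, DESeq2 1.30.1 and GRCm39, but neither their roles nor a strand setting, so genes that overlap another gene are uncertain. The authors deposited normalised reads, a signal in which all values (100%, tolerance 0.01) were whole multiples of a library's smallest value, and whole reads were recovered. Their deposited statistics (mean signal, log2 fold change, test score, p-value) served for description only.

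Values of 14079 genes with a mean of at least 10 were tested as log2(value + 1), a scale that understates changes of low genes. Limma 3.58.1 (R 4.3.3; trended, two-sided, group as the only term) was used, with Benjamini-Hochberg adjustment over all genes. Alternatives on recovered reads were the edgeR 4.0.16 quasi-likelihood test with TMM and DESeq2 1.42.0. All were checked on simulated data. Exon lengths are unions from the GENCODE M21 annotation of GRCm38. RefSeq promoter windows were found for 9 of 10 members. Members and lists were chosen with earlier results of these data known. Genes named were the members, up to 4 of lowest p per list, 11 chosen by name and the nearest profiles; 1 gene so chosen is not reported here. Cmpk2, Syk, Gbp2, Gbp3, Gbp5, Gbp6, Card9, Ripk3 and B2m were named after their values were seen.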

Additional observations from a re-analysis of the deposited data

How the results depend on the processing

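Over all genes the count called was 0 by limma. It was 370 with DESeq2 and 1 with no filter on low values (P2ry6), and ranged from 0 to 959 when a library was left out. It was 651 by limma, 691 by edgeR and 959 by DESeq2 without Control replicate 1, the tests by edgeR and DESeq2 there being added after the data were seen, and 1 without FL-ApoE4 replicate 2 (Gm33661). The cause was not tested. The count of members called was 0 in every fit of all 6 libraries and ranged from 0 to 3 with a library left out. Without Control replicate 1 it was 1 by limma and edgeR (Nlrp3) and 3 by DESeq2 (Nlrp3, Gsdmd and Il18).

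Of 49 genes followed, none changed sign under the alternatives in pseudocount, filter, scaling, test or pairing with all libraries, and 4 passed the threshold in addition, with DESeq2 (Ddit4, Ptk2b, Ptpn22 and Serpinb1a). With a library left out the sign changed for 4 genes near 0. By limma the log2 fold changes ranged from -0.0187 to 0.0192 for Casp8, -0.0161 to 0.0393 for Nek7, -0.0482 to 0.26 for Nlrp1b and -0.14 to 0.0550 for Gsdme. Without Control replicate 1 edgeR and DESeq2 gave -0.0153 and -0.0213 for Casp8, -0.0125 and -0.0182 for Nek7, -0.0418 and -0.0476 for Nlrp1b and 0.0636 and 0.0583 for Gsdme. The fit with the replicate number as a block called 0 genes and 0 members. Deviations from the group means correlated at 0.13, 0.07 and -0.03 between same-numbered libraries, and at -0.16 to 0.16 between the others. From 3 libraries per group these values cannot decide whether the numbers pair the samples. Replicate 1 was the library that stood apart in both groups. Pycard, Casp4 and Txnip are limited by their reads, and a difference in them was not detectable.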
